A study of Homo sapiens with 6 samples.

Results

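The genes of cholesterol and fatty acid synthesis were followed in 2 human PDAC (pancreatic ductal adenocarcinoma) lines, PK-1 and Panc-1. The 34 genes are enzymes of both pathways, the SREBP genes that control them and a few genes of sterol transport. They were chosen by their symbols from knowledge of the pathways, with earlier results of these data known. Each symbol has 1 entry among the 53826 entries of the data. The 34 genes were divided into sterol synthesis (17 genes), fatty acid synthesis (8), SREBP machinery (5), sterol transport (3) and LPIN1 of glycerolipid synthesis. All 34 reached 5 TPM in at least 1 library, the minimum used here, which 12411 symbols reached in all. A control sample of each line was set beside samples that had received an antagonist of retinoic acid receptor γ (RARγ) for 24 h, either LY2955303, named RARγi-1, or MM11253, named RARγi-2, which differ in structure. RNA from each of these 6 conditions was sequenced once. The doses used for the RNA-seq and the vehicle of the controls are not given in the sources used here. The library titles name RARγi-2, whereas a treatment entry of both RARγi-2 libraries reads RARγi-1, and the titles were followed.

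Cells make cholesterol from acetyl-CoA through the mevalonate pathway, and they build saturated and unsaturated fatty acids from the same acetyl-CoA in the cytosol. Transcription of both pathways is driven by the sterol regulatory element-binding proteins, which are held in the endoplasmic reticulum by SCAP and the INSIG proteins while sterols are plentiful and are carried to the Golgi and cut when sterols run low. SREBP-2, encoded by SREBF2, is known mainly for the sterol genes, and SREBP-1, encoded by SREBF1, mainly for the fatty acid genes.

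The deposited values are log2 TPM, where TPM is the transcript abundance corrected for transcript length and scaled to the same total in each library. Values under 1 TPM are listed as 1 TPM, called the floor here. Between 74.6% and 75.6% of entries per library were at the floor. The depth is unknown because TPM keeps no read number, and counting errors are therefore not given. The log2 fold change is the difference in log2(TPM + 1), treated minus control of the same line, which understates the change of low genes. Values are given in the order control, RARγi-1, RARγi-2 for levels and RARγi-1, RARγi-2 for fold changes. With 1 library per condition there is no replicate check and no p-value. In bulk RNA, fewer cells of a kind and less RNA per cell cannot be told apart. Variation was gauged from the robust standard deviation, over all tested entries, of the RARγi-2 minus RARγi-1 difference of a line, called the spread here, which also holds real differences between the inhibitors. PK-1 had a spread of 0.39 (log2) and Panc-1 of 0.30. Median-ratio rescaling would lower all RARγi-1 fold changes, by 0.11 in PK-1 and by 0.09 in Panc-1. The epithelial keratin genes KRT8, KRT18 and KRT19 were between 157 and 6408 TPM in all libraries. All of them were lower after treatment in both lines. In Panc-1, KRT8 was at 3530, 656 and 566 TPM, KRT18 at 3415, 859 and 750.2 TPM, and KRT19 at 1454, 247 and 157 TPM. PK-1 had KRT8 at 5967, 3150 and 3779 TPM, KRT18 at 6408, 3792 and 4350 TPM, and KRT19 at 3711, 3446 and 2646 TPM. EPCAM was at 19.4 TPM or less in Panc-1 and at 578, 552 and 497 TPM in PK-1. VIM, a mesenchymal marker, was higher after treatment in PK-1, at 41.7, 92.1 and 140.0 TPM, and lower in Panc-1, at 6291, 4049 and 3962 TPM. Markers of endocrine, leukocyte, endothelial, fibroblast and hepatic cells were at the floor in every library. Of the 2 acinar markers, CPA1 was at the floor throughout, while PRSS1 went from 1.06 TPM to 11.1 TPM (RARγi-1) and 21.2 TPM (RARγi-2) in PK-1. The part of these shifts in the results was not tested.

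In PK-1, 2 of the 34 genes rose more than 2-fold with RARγi-1, against 9.91% of all tested entries, and 2 fell, against 5.20%. After the rescaling, 0 rose and 4 fell in this comparison, as FADS2 and ACSS2 came under 2-fold and SCD (-1.02) and ACACA (-1.03) passed it. With RARγi-2 in PK-1, 2 genes rose, against 12.9% of all entries, and 7 fell (20.6% of the 34), against 13.5%. In Panc-1, 3 genes rose with RARγi-1, against 7.86%, and 1 fell, against 6.51%. With RARγi-2 in Panc-1, 5 genes rose (14.7%), against 9.02%, and 6 fell (17.6%), against 11.97%. Both comparisons of a line use the same control library, whereas the controls of the lines are separate. With RARγi-1, 0 genes rose and 0 fell in both lines, where 3.40% and 2.30% of all entries did. With RARγi-2, INSIG2 alone rose in both lines (2.94%, against 5.36% of all entries), and SCD, FASN, ACACA, ACLY and EBP fell in both (14.7%, against 5.72%). In all 4 comparisons, 0 of the 34 genes rose and 0 fell, against 2.71% and 2.19% of all entries. Altogether 15 genes were past 2-fold in at least 1 comparison, 10 of them in the same direction in at least 2, and 0 in both directions.

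ACLY, ACACA, FASN and SCD were the fatty acid genes that fell. ACLY (Entrez gene 47), which splits citrate into the acetyl-CoA used for lipid synthesis, fell with RARγi-2 in both lines. Its level was 129 TPM in the PK-1 control and 89.1 and 49.5 TPM with RARγi-1 and RARγi-2, and it was 53.2, 32.2 and 23.6 TPM in the same order in Panc-1. The log2 fold changes were -0.53 and -1.37 for PK-1 and -0.71 and -1.14 for Panc-1, all larger than the spread. ACACA (31), the carboxylase that commits acetyl-CoA to fatty acid synthesis, was at 45.5, 23.5 and 12.4 TPM in PK-1 and at 8.90, 6.98 and 3.39 TPM in Panc-1. Its log2 fold changes were -0.93 and -1.79 for PK-1 and -0.31 and -1.17 for Panc-1. FASN (2194), the synthase that makes palmitate, fell in 3 comparisons. It went from 84.2 TPM to 36.4 TPM (RARγi-1) and 14.3 TPM (RARγi-2) in PK-1, which gave log2 fold changes of -1.19 and -2.48, and from 70.5 TPM to 41.8 TPM (RARγi-1) and 28.1 TPM (RARγi-2) in Panc-1, with -0.74 and -1.29. SCD (6319), the desaturase that turns stearate into oleate, had the lowest fold change of the 34 genes with RARγi-2 in PK-1. Its level was 173 TPM in the control, the highest of the 34 genes there, and 91.2 and 23.5 TPM in the treated PK-1 libraries. In Panc-1 it was 91.9, 77.1 and 33.4 TPM. The log2 fold changes of SCD were -0.92 and -2.83 for PK-1 and -0.25 and -1.43 for Panc-1, and with RARγi-1 in Panc-1 the difference was within the spread. Of all tested entries, 1.07% had a lower fold change than SCD with RARγi-2 in PK-1, and 6.65% in Panc-1.

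In these 4 genes the RARγi-2 library was the lowest and the control the highest of the 3 libraries in each line. The other 4 fatty acid genes did not have this order in both lines. Outside the fatty acid branch, EBP, DHCR7, FDPS, SREBF1 and LPIN1 had it in both lines as well. ACSS2, which makes acetyl-CoA from acetate, was higher in all treated libraries, at 22.3, 45.7 and 33.5 TPM in PK-1 and 12.5, 18.7 and 13.9 TPM in Panc-1. Its log2 fold changes were 1.003 and 0.57 for PK-1 and 0.55 and 0.15 for Panc-1. Only the first was past 2-fold, and it became 0.90 after the rescaling. ELOVL6, the elongase that lengthens palmitate, had log2 fold changes of -0.37 and -0.66 in PK-1, and in Panc-1 it was low in every library, at 2.29, 2.92 and 1.34 TPM, with 0.25 and -0.49. FADS1 and FADS2 are the desaturases of polyunsaturated fatty acids. FADS2 (9415) rose in PK-1 from 1.74 TPM to 4.75 and 5.07 TPM, which gave log2 fold changes of 1.07 and 1.15, and these levels lie near the floor; without a pseudocount the values were 1.45 and 1.54. After the rescaling, the RARγi-1 value was 0.99. In Panc-1, where FADS2 was at 46.4, 41.1 and 39.4 TPM, its log2 fold changes of -0.17 and -0.23 were within the spread. FADS1 was higher in the treated Panc-1 libraries, with log2 fold changes of 0.80 and 0.73, and within the spread in PK-1, with 0.28 and -0.27. LPIN1, a phosphatidate phosphatase of glycerolipid synthesis, stayed within the spread in all 4 comparisons, with log2 fold changes from -0.37 to -0.00.

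**Figure D1:**
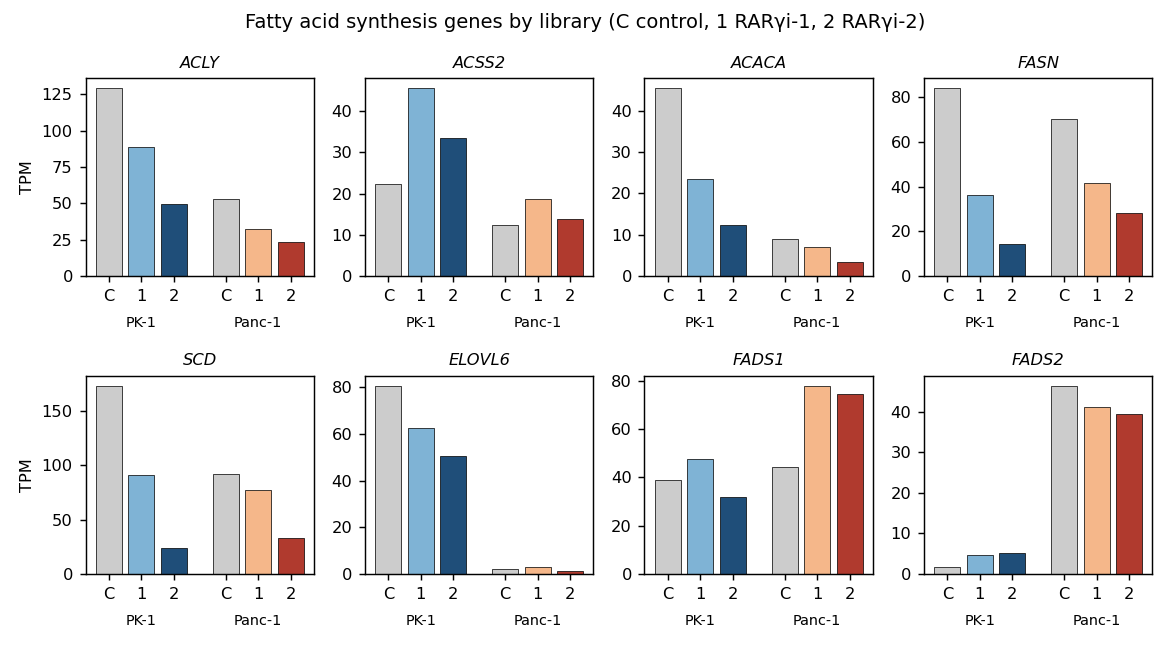
TPM of the 8 fatty acid synthesis genes in the 6 libraries, 1 bar per library on a linear axis from 0 that differs between genes; C is the control, 1 is RARγi-1 and 2 is RARγi-2. ACLY, ACACA, FASN and SCD step down from control to RARγi-1 to RARγi-2 in both lines, while ACSS2 is highest with RARγi-1 in each line.

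The sterol genes did not move together. EBP (10682), the sterol isomerase late in the pathway, fell in 3 comparisons. It was at 129, 88.4 and 50.5 TPM in PK-1 and at 131, 59.7 and 44.0 TPM in Panc-1, which gave log2 fold changes of -0.54 and -1.34 for PK-1 and -1.13 and -1.56 for Panc-1. DHCR7 (1717), the reductase of the last step to cholesterol, fell in both PK-1 comparisons, from 63.0 TPM to 27.4 and 15.6 TPM, which gave log2 fold changes of -1.17 and -1.94. In Panc-1 it was at 48.9, 46.3 and 31.2 TPM, with -0.08 and -0.63. The decrease of DHCR7 was thus past 2-fold only in PK-1, and the difference between the lines was not tested.

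HMGCS1, which makes HMG-CoA at the entry of the mevalonate pathway, and MSMO1, the methyl sterol oxidase that starts the removal of methyl groups at carbon 4, rose in Panc-1 with RARγi-2. HMGCS1 was at 8.71, 18.3 and 20.1 TPM in Panc-1, which gave log2 fold changes of 0.99 and 1.12, and at 30.9, 37.5 and 31.9 TPM in PK-1, with 0.27 and 0.05. Without a pseudocount, HMGCS1 was past 2-fold with RARγi-1 in Panc-1 as well, at 1.07. MSMO1 was at 20.5, 37.3 and 46.3 TPM in Panc-1, which gave log2 fold changes of 0.83 and 1.14, and at 38.0, 69.5 and 45.4 TPM in PK-1, with 0.85 and 0.25. In PK-1, both genes had their highest level in the RARγi-1 library.

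Of the mevalonate enzymes that follow HMG-CoA, the kinase gene MVK fell with RARγi-2 in PK-1, at a log2 fold change of -1.04, and was at -0.998, under 2-fold, after the rescaling. Its value with RARγi-1 was -0.64 there, and Panc-1 had 0.23 and 0.62. PMVK, the next kinase, had log2 fold changes of -0.03 and 0.21 for PK-1 and -0.76 and -0.37 for Panc-1. MVD, the decarboxylase that ends the mevalonate stage, was higher than control by more than the spread in each treated library, with log2 fold changes of 0.71 and 0.67 for PK-1 and 0.63 and 0.95 for Panc-1, none past 2-fold. The isoprenoid enzymes IDI1 and FDPS were lower in PK-1, where IDI1 had log2 fold changes of -0.38 and -0.86 and FDPS -0.49 and -0.74. In Panc-1 the values of IDI1 were -0.18 and -0.02 and those of FDPS -0.06 and -0.33. FDPS was at 149 TPM in the Panc-1 control, the highest of the 34 genes there.

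The first enzymes of the sterol stage make and close squalene. FDFT1, squalene synthase, had log2 fold changes of 0.12 and -0.56 for PK-1 and 0.11 and -0.09 for Panc-1. SQLE, squalene epoxidase, had 0.58 and -0.23 for PK-1 and 0.22 and 0.57 for Panc-1, and LSS, lanosterol synthase, stayed between -0.14 and 0.34. Further along, CYP51A1, the lanosterol demethylase, was higher in Panc-1, with 0.64 and 0.84, and within the spread in PK-1, with 0.15 and -0.19. NSDHL, which acts with MSMO1 on the methyl groups at carbon 4, had -0.08 and -0.17 for PK-1 and 0.39 and 0.49 for Panc-1. HSD17B7, the keto-reductase of the same step, was between -0.06 and 0.39. Its pseudogene HSD17B7P2, whose reads the authors' counting could have mixed with those of the gene, went from 1.05 TPM to 3.58 TPM (RARγi-1) and 4.96 TPM (RARγi-2) in Panc-1. FDPS, CYP51A1, SCD and FADS2 also have pseudogene entries, all of them at the floor in every library. SC5D, the desaturase before the last step, was higher in all treated libraries, with log2 fold changes between 0.23 and 0.57. TM7SF2, the sterol reductase after the lanosterol demethylase, fell with RARγi-2 in Panc-1, from 18.3 TPM to 8.39 TPM (log2 fold change -1.04), and was at 20.3 TPM with RARγi-1 (0.15). In PK-1, TM7SF2 was at 5.89, 9.54 and 6.34 TPM. Its log2 fold changes there were 0.61, beyond the spread and above 0, and 0.09.

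**Figure D2:**
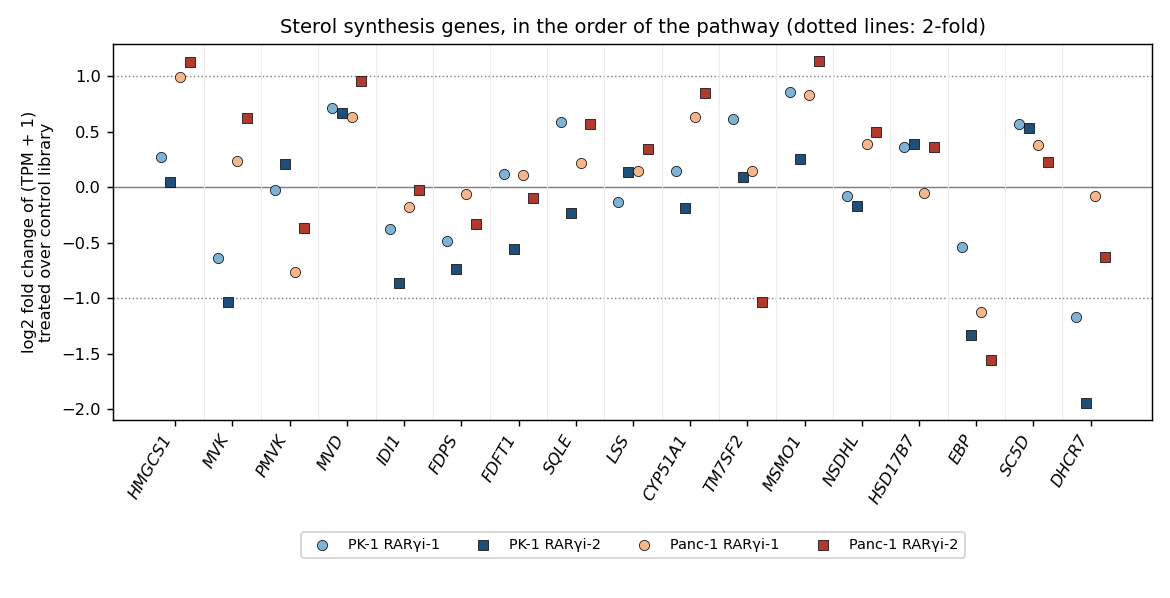
Log2 fold change of (TPM + 1), treated over control library, for the 17 sterol synthesis genes from the first enzyme on the left to the last on the right; each point is 1 comparison and dotted lines mark 2-fold. Points lie on both sides of 0 along the whole pathway, with EBP and DHCR7 lowest and MSMO1 and HMGCS1 highest.

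The branches were compared by the median log2 fold change of their genes, which are not replicates. In the sterol branch, the medians were 0.12 and -0.17 for PK-1 and 0.15 and 0.34 for Panc-1. In the fatty acid branch, they were -0.45 and -1.02 for PK-1 and -0.21 and -0.82 for Panc-1. The median of all tested entries was 0.13 and 0.00 for PK-1 and 0.05 and 0.00 for Panc-1. The sterol median thus lay above the fatty acid median in every comparison, by 0.57 and 0.84 in PK-1 and by 0.36 and 1.16 in Panc-1. With RARγi-1 in PK-1, the sterol median (0.12) was close to that of all entries (0.13). This contrast belongs to the genes listed here, and the lists were chosen with earlier results of these data known. Among the other genes of these pathways, described at the end, the medians of the sterol and isoprenoid genes were -0.39 and -0.39 for PK-1 and -0.49 and -0.18 for Panc-1. Not all genes of that group are enzymes of sterol synthesis. The medians of fatty acid activation, elongation and desaturation were 0.24 and -0.27 for PK-1 and 0.13 and -0.08 for Panc-1. There the sterol and isoprenoid median was the lower one in all 4 comparisons. With RARγi-2, 4 of 8 fatty acid genes (50%) fell in each line, where the shares of all entries were 13.5% (PK-1) and 11.97% (Panc-1). In the same comparisons, 1 of 8 rose in PK-1 but 0 did in Panc-1. Of the sterol genes, 3 of 17 (17.6%) fell and 0 rose in PK-1, whereas 2 of 17 (11.8%) fell and 2 of 17 rose in Panc-1, and the shares that fell lie near those of all entries. Summed TPM weights the abundant genes more. The 17 sterol genes together held 861 TPM in the PK-1 control and 842 and 645 TPM in its treated libraries, and 743, 745 and 761 TPM in Panc-1. The 8 fatty acid genes held 576, 400.5 and 221 TPM in PK-1 and 330.0, 299 and 218 TPM in Panc-1. With RARγi-2, the summed fatty acid level was therefore 38.4% of the control in PK-1 and 65.9% in Panc-1, whereas the summed sterol level was 74.9% and 102%.

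**Figure D3:**
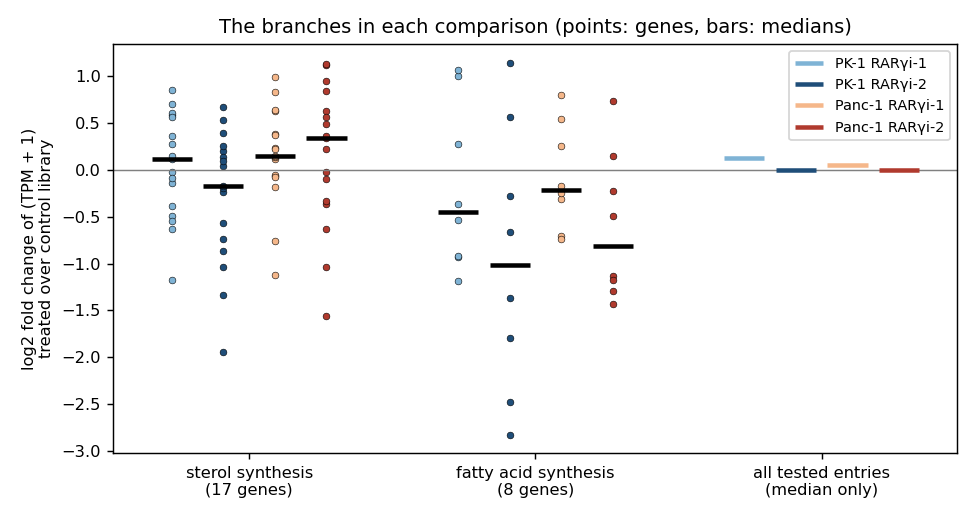
Log2 fold change of (TPM + 1), treated over control library, of each sterol gene and each fatty acid gene (points), with the median of each branch as a black bar and the median of all tested entries as a colored bar. The fatty acid medians, from -1.02 to -0.21, lie below the sterol medians, from -0.17 to 0.34, in each comparison.

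The SREBP genes themselves lay on opposite sides of their controls. SREBF2 (6721) rose in Panc-1, from 14.5 TPM to 39.2 and 35.8 TPM, which gave log2 fold changes of 1.37 and 1.25. In PK-1 it was at 47.8, 76.1 and 51.9 TPM, with 0.66 and 0.12, and the value for RARγi-2 was within the spread. SREBF1 (6720) was lower in all treated libraries, at 57.6, 43.0 and 31.0 TPM in PK-1 and 35.2, 29.5 and 17.4 TPM in Panc-1. Its log2 fold changes were -0.41 and -0.87 for PK-1 and -0.25 and -0.97 for Panc-1. The value for RARγi-1 in Panc-1 was within the spread, and that for RARγi-2 in Panc-1 was -1.01 without a pseudocount. The level of SREBF1 was 1.21 times that of SREBF2 in the PK-1 control and 2.43 times in the Panc-1 control. In the treated libraries it was 0.565 and 0.598 times in PK-1 and 0.753 and 0.487 times in Panc-1, so that SREBF1 was the more abundant of the pair in both controls and SREBF2 in all 4 treated libraries. The values do not separate the SREBP-1a and SREBP-1c transcripts of SREBF1, and they give no measure of the cleaved proteins.

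INSIG2 (51141), which retains the SCAP-SREBP complex in the endoplasmic reticulum, rose in 3 comparisons. It was at 28.8, 56.1 and 69.7 TPM in PK-1, which gave log2 fold changes of 0.94 and 1.25, and at 6.62, 14.4 and 19.5 TPM in Panc-1, with 1.01 and 1.43. After the rescaling, the RARγi-1 value in Panc-1 was 0.93. INSIG1, which has the same role and is known as an SREBP target, was at 14.5, 16.0 and 8.37 TPM in PK-1 and 16.1, 27.1 and 26.3 TPM in Panc-1. Its log2 fold changes were 0.13 and -0.73 for PK-1 and 0.71 and 0.67 for Panc-1. SCAP, the sterol-sensing escort, stayed between -0.39 and 0.21 in all comparisons.

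**Figure D4:**
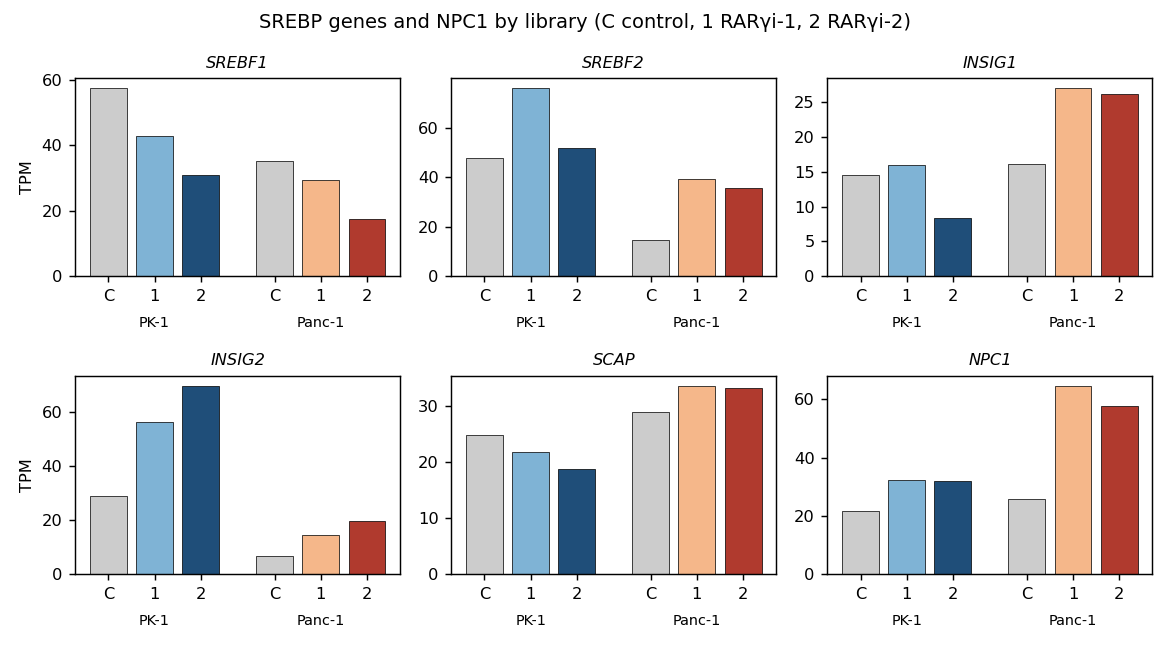
TPM of SREBF1, SREBF2, INSIG1, INSIG2, SCAP and NPC1 in the 6 libraries, 1 bar per library on a linear axis from 0 that differs between genes; C is the control, 1 is RARγi-1 and 2 is RARγi-2. SREBF1 steps down from control to RARγi-2 in both lines and INSIG2 steps up, while SREBF2 and NPC1 are higher in all treated libraries than in the control of their line.

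The promoters were searched for the motifs that SREBPs and their partner factors are known to bind, in the 250 bases before each annotated start in the RefSeq promoter table (GRCh38.p14), on both strands. The table holds 31 of the 34 genes; FASN, SQLE and FDFT1 are not among them. The sterol regulatory element, searched as TCACNCCAC, was found in 1 of the 31 genes, SREBF2, and in 1.21% of the tested genes of the table. Only exact matches to these letters within the 250 bases were sought, so variant or more distant elements would be missed. The NF-Y box CCAAT was found in 20 of the 31 (64.5%), against 41.5% of tested genes. It was in 13 of 15 sterol genes, in 4 of 7 fatty acid genes and in 2 of the 5 genes of the SREBP machinery. The Sp1 box GGGCGG was in 30 of the 31 (96.8%), against 75.6% of tested genes, and the E-box CACGTG in 4 of the 31 (12.9%), against 11.3%. Over all genes of the table, the shares were 1.09% for the sterol regulatory element, 37.0% for the NF-Y box, 46.2% for the Sp1 box and 7.73% for the E-box. A gene with several annotated starts counts as holding a motif when any of its windows does. Of the genes past 2-fold in at least 2 comparisons, all 5 in the table that fell (SCD, ACLY, ACACA, EBP, DHCR7) hold the NF-Y box. Of the 4 that rose, SREBF2 holds it and INSIG2, NPC1 and FADS2 do not. MSMO1 and HMGCS1, which rose in 1 comparison, hold it too. So do MVD, LSS, NSDHL and SC5D, which were past 2-fold in no comparison. The genes that fell are all enzymes of sterol or fatty acid synthesis, whereas those that rose are mostly from the other branches. Both sets were picked by their fold changes, and a link between the box and the direction was not tested. The windows of 4 genes are printed as examples of both directions. SREBF2 has the only match to TCACNCCAC among the 31 genes, SCD and EBP fell with RARγi-2 in both lines, and MSMO1 rose with RARγi-2 in Panc-1. Capitals mark the sterol regulatory element and the NF-Y boxes, the latter written as ATTGG on the reverse strand.
SREBF2, chr22:41832855-41833104, plus strand: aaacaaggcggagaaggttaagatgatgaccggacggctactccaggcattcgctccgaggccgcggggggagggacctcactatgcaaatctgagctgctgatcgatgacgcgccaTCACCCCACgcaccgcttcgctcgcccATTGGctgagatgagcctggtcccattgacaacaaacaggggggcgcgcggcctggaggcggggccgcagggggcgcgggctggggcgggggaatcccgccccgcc
SCD, chr10:100346983-100347232, plus strand: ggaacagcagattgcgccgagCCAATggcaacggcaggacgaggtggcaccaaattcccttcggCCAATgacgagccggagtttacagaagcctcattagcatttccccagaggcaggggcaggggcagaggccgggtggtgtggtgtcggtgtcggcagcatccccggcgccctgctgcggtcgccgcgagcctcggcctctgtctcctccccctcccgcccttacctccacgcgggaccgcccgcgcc
EBP, chrX:48521558-48521807, plus strand: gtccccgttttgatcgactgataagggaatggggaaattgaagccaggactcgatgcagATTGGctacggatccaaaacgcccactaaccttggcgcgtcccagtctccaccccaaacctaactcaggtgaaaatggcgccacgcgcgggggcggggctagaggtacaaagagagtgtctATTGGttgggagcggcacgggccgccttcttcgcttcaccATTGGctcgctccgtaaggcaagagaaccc
MSMO1, chr4:165327419-165327668, plus strand: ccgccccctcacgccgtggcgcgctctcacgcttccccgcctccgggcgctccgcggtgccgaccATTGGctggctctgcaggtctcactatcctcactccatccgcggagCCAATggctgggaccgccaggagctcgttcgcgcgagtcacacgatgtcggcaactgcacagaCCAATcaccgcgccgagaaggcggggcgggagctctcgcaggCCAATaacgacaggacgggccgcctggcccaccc
In SREBF2, the sterol regulatory element ends 125 bases and the NF-Y box 102 bases before the start. SCD holds 2 marked boxes, EBP 3 and MSMO1 4.

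Sterol transport was represented by 3 genes. NPC1 (4864), which exports cholesterol from late endosomes and lysosomes, rose in Panc-1 from 25.8 TPM to 64.8 and 57.6 TPM, which gave log2 fold changes of 1.29 and 1.13. In PK-1 it was at 21.6, 32.4 and 31.9 TPM, with 0.57 and 0.54, which was beyond the spread but not past 2-fold. STARD4, a cytosolic sterol carrier, was at 16.4, 27.5 and 17.4 TPM in PK-1, which gave log2 fold changes of 0.71 and 0.08, and near the floor in Panc-1, with 0.20 and 0.26. ABCA1, the cholesterol exporter induced by LXR, was at 9.50, 6.13 and 5.61 TPM in PK-1, with -0.56 and -0.67, and it was listed at the floor throughout Panc-1.

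The treated libraries of a line were also compared directly. In PK-1, 18 of the 34 genes were lower with RARγi-2 than with RARγi-1 by more than the spread, against 27.4% of all tested entries, and 0 were higher, against 9.92%. In Panc-1, 10 were lower, against 27.6%, and 7 were higher, against 10.01%. The median of this difference over all tested entries was -0.14 (PK-1) or -0.09 (Panc-1), so most entries were already lower with RARγi-2. In the fatty acid branch, 7 of 8 genes had a lower value with RARγi-2 than with RARγi-1 in PK-1 and 8 of 8 in Panc-1, with median differences of -0.69 and -0.49. In the sterol branch, 14 of 17 genes were lower with RARγi-2 in PK-1, with a median of -0.33, whereas 11 of 17 were higher in Panc-1, with a median of 0.16. SQLE shows the contrast, its difference being -0.82 in PK-1 but 0.35 in Panc-1. These differences compare single libraries, and whether the doses had equal strength is not known.

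In the control libraries, 10 of the 34 genes were more than 2-fold higher in PK-1 than in Panc-1 (29.4%, against 16.1% of tested entries), and 3 were more than 2-fold higher in Panc-1 (8.82%, against 17.3%). ELOVL6 had the largest difference of the 34 genes, with 80.7 TPM in PK-1 against 2.29 TPM in Panc-1. FADS2 had the opposite pattern, at 1.74 and 46.4 TPM. Of the regulators, SREBF2 had 47.8 TPM in PK-1 against 14.5 TPM in Panc-1, and INSIG2 at 28.8 and 6.62 TPM. ELOVL6 and FADS2 thus stood furthest apart between the lines, in opposite directions, while FDPS (155 and 149 TPM), EBP (129 and 131 TPM) and NSDHL (72.2 and 74.5 TPM) had nearly the same levels.

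A list of 57 other genes of these pathways was followed as well, of which 55 reached 5 TPM; ACACB and MLXIPL did not. With RARγi-1 in PK-1, 4 of the 55 (7.27%) rose, against 9.91% of all entries, and 3 (5.45%) fell, against 5.20%. With RARγi-2 in PK-1, 7 (12.7%) rose, against 12.9%, and 9 (16.4%) fell, against 13.5%. With RARγi-1 in Panc-1, 5 (9.09%) rose, against 7.86%, and 3 (5.45%) fell, against 6.51%. With RARγi-2 in Panc-1, 5 (9.09%) rose, against 9.02%, and 11 (20%) fell, against 11.97%. The shares thus lay near those of all entries, the last one furthest above. PLIN2 and LPIN2 rose in all 4 comparisons. PLIN2, which coats lipid droplets, went from 46.1 TPM to 443 TPM (RARγi-1) and 860.4 TPM (RARγi-2) in PK-1 and from 17.97 TPM to 72.7 TPM (RARγi-1) and 65.0 TPM (RARγi-2) in Panc-1, and its log2 fold changes, in the same order, were 3.24, 4.19, 1.96 and 1.80. LPIN2, a paralog of LPIN1, went from 14.4 TPM to 40.3 TPM (RARγi-1) and 85.3 TPM (RARγi-2) in PK-1 and from 15.2 TPM to 34.1 TPM (RARγi-1) and 32.4 TPM (RARγi-2) in Panc-1. MYLIP, the ubiquitin ligase that LXR induces against lipoprotein receptors, fell in all 4, from 6.71 TPM to 2.77 TPM (RARγi-1) and 1.16 TPM (RARγi-2) in PK-1 and from 6.94 TPM to 2.65 TPM (RARγi-1) and 2.39 TPM (RARγi-2) in Panc-1.

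The same genes were counted by role with RARγi-2, where 12.9% of all entries rose and 13.5% fell in PK-1, and 9.02% rose and 11.97% fell in Panc-1. Of 11 other sterol and isoprenoid genes, 4 (36.4%) fell and 1 (9.09%) rose in each line. In the group of SREBP processing and turnover, 1 of 8 genes (12.5%) fell in each line and 0 rose. Among genes of sterol export, sterol esters and LXR, 2 of 10 (20%) fell in PK-1 and 3 of 10 (30%) in Panc-1, and 1 rose in each line. Of the 11 tested genes of fatty acid activation, elongation and desaturation, 2 (18.2%) fell in each line, while 0 rose in PK-1 and 1 (9.09%) in Panc-1. That gene was ME1, the cytosolic malic enzyme, at a log2 fold change of 1.73, named after its value was seen. Of the other glycerolipid genes, which include PLIN2, 4 of 7 (57.1%) rose and 0 fell in PK-1. In Panc-1, 2 of 7 (28.6%) rose and 1 (14.3%) fell. Of 8 genes of fatty acid oxidation, 1 (12.5%) rose and 0 fell in PK-1, and 0 were past 2-fold in Panc-1. In a group of 11 genes, 1 gene is already 9.09% of the group.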

How the data were processed

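RNA of 6 samples was made into stranded mRNA libraries, 1 per condition. The authors deposited log2 values of TPM, listed per Entrez gene, and per the labels the genome build was hg38; the aligner, the counting method and the annotation are not given in the sources used here. That values under 1 TPM had been raised to 1 TPM was read from the values. Fold changes were computed from the linear TPM after adding a pseudocount of 1 TPM. For the 113 symbols with several entries, the one with the highest mean was kept. Fold changes past 2-fold were counted over symbols reaching 5 TPM in any library. The spread is 1.4826 times the median absolute deviation. The alternatives were pseudocounts of 0.1 and 0, minimums of 10 TPM and none, rescaling by median ratios, thresholds of 1.5-fold and 3-fold, summed TPM, leaving out members that have pseudogene entries, and summing repeated entries; a minimum within the cell line was added after the data had been seen. The fold change formula, rather than the whole script, was tried on simulated data. The planted changes were larger than 2-fold and lay in genes well above the minimum level. The members and gene lists were chosen with earlier results of these data known. Full values are given for members past 2-fold in the same direction in at least 2 comparisons and for SREBF1 and SREBF2, and the others are named with their fold changes or the range of these; the levels printed for other members (ACSS2, ELOVL6, NSDHL, FDPS, HMGCS1, MSMO1, TM7SF2, INSIG1, STARD4 and ABCA1) were added after their values had been seen. Of the other genes, those past 2-fold in all 4 comparisons are named. Python 3.11.15, numpy 2.4.6 and pandas 2.3.3 were used.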

Additional observations from a re-analysis of the deposited data

Results flagged for a closer look

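In 4 of the 34 genes, both treated libraries of PK-1 lay on one side of their control and both treated libraries of Panc-1 on the other. With 1 library per condition the difference between the lines was not tested, and the 2 comparisons of a line share a control library. The mean log2 fold change of MVK was -0.84 in PK-1 and 0.43 in Panc-1, a difference of 1.27. For FADS2 the means were 1.11 in PK-1, where its levels lie near the floor, and -0.20 in Panc-1, a difference of -1.31. For NSDHL they were -0.13 and 0.44, a difference of 0.57, and for SCAP -0.28 and 0.20, a difference of 0.49; the PK-1 means of both genes and the Panc-1 means of FADS2 and SCAP are within the spread of the line.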

How the results depend on the processing

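The minimums of 10 TPM and none changed none of the medians or counts, and neither summing repeated entries (no member has a repeated symbol) nor the minimum in the cell line changed a count. Under the other alternatives, 53 of 72 medians and branch differences moved by less than the tolerance (the spread of the line over the square root of the number of genes, combined over both branches for a difference), and 32 of 50 counts stayed within 1.5 times. The tolerance treats the genes of a branch as independent although they are not replicates, so the number of medians within it is only a rough guide. For these 17 and 8 genes, the sterol median lay above the fatty acid median under every alternative in each comparison. The sterol branch of PK-1 RARγi-1 changed sign when TPM were summed, to -0.034; the summed values of the other sterol branches were -0.42 (PK-1 RARγi-2), 0.00407 (Panc-1 RARγi-1) and 0.034 (Panc-1 RARγi-2), those of the fatty acid branch with RARγi-2 were -1.38 (PK-1) and -0.60 (Panc-1), and the branch difference in Panc-1 was 0.15 (RARγi-1) and 0.63 (RARγi-2). Summing weights the abundant genes. With RARγi-2 in Panc-1, the fatty acid median and the branch difference were -0.95 and 1.31 with a pseudocount of 0.1, -0.97 and 1.33 without one, and -1.14 and 1.481 with the minimum in the cell line, which leaves out ELOVL6. Rescaling gave sterol medians with RARγi-1 of 0.014 (PK-1) and 0.061 (Panc-1), and 0 genes up and 4 down in PK-1 RARγi-1. Without the members that have pseudogene entries, the sterol median of PK-1 RARγi-2 was -0.062, and the fatty acid median of Panc-1 RARγi-1 was -0.028 with a branch difference of 0.21. Past 1.5-fold, 8 genes were up and 5 down in PK-1 RARγi-1, 13 down in PK-1 RARγi-2, 9 up and 4 down in Panc-1 RARγi-1, 10 up in Panc-1 RARγi-2, and 2 up and 1 down in all 4 comparisons. Past 3-fold, 4 genes were down in PK-1 RARγi-2, and the counts up in all comparisons, and down in the other comparisons, were 0. Of 408 fold changes of single members, 1 moved by more than the spread, FADS2 in PK-1 RARγi-2, to 1.54 without a pseudocount, and none past 2-fold changed sign. No paired analysis was possible because each condition has 1 library. TPM keeps no depth, so the counting error of low genes such as FADS2 in PK-1 is unknown.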
